A study of Mus musculus with 6 samples.

Results

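The genes described here encode subunits of canonical Polycomb repressive complex 1 (PRC1) in mouse embryonic stem cells. They were chosen by symbol from a list of 9, Cbx2, Cbx6, Cbx7, Cbx8, Pcgf2, Bmi1, Phc1, Scmh1 and Scml2, and 8 of them were measured among 10989 genes in all. Cbx8 was not analysed here. RNA was sequenced from 4 knockout (KO) lines, each grown from a single clone after a Cas9 nickase and paired guide RNAs had cut the second exon of Ddx5 and G418 had selected transfected cells, and from 2 wild-type (WT) libraries with an intact Ddx5 gene. Ddx5 encodes an RNA helicase, also called p68, that works in transcription, splicing and microRNA processing. Both kinds of cells were of the MPI-II line at passages 13 to 18. Feeder cells supported both, and the serum medium held LIF, 1 µM of the MEK inhibitor PD0325901 and 3 µM of the GSK3 inhibitor CH99021. The title of the series names Polycomb repressive complexes, and the comparison asks whether the genes of these complexes differ when Ddx5 is lost.

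Polycomb complexes keep developmental genes silent. PRC1 carries a RING1 protein, Ring1 or Rnf2, that attaches ubiquitin to histone H2A, together with a PCGF partner protein. In the canonical form a CBX protein binds, through its chromodomain, the histone H3 methylation that PRC2 writes, and a PHC protein links complexes to each other through its SAM domain. SCM proteins, which have MBT repeats and a SAM domain, join the same assembly. In mouse embryonic stem cells Cbx7 is known as the main Polycomb CBX protein, and other CBX genes are known to take over during differentiation.

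The values are a normalized expression score that the authors deposited under the name CPM, given below in deposited units. Library totals lay between 14612799 and 14722877 units. Since the normalization sets these totals, the sequencing depth is unknown. The highest value was 78894 units in every library, and other values also recur exactly, as for Eif4g2 at 20775 units in all 4 KO lines. Such shared steps may come from the normalization, so equal or nearly equal values are not read here as equal levels. Ddx5 had 5854, 8450, 12793 and 5659 units in KO lines 1 to 4, against 36433 and 36436 units in WT replicates 1 and 2, so the targeted transcript was lower in each line (log2 fold change -2.23, adjusted p = 0.00807, limma). WT replicate 2 differed from the rest in that 131 of its genes were listed at 0, where each other library had 13 to 19. All 13 listed embryonic stem cell markers were measured, and Nanog was higher and Klf4 and Lin28a were lower in KO. Of 19 measured feeder fibroblast markers 17 were lower in KO and none was higher (0 also at an unadjusted limma p below 0.05). Their summed level was 42807 to 46088 units in the KO lines, against 84557 and 56490 units in WT replicates 1 and 2, and most of each KO sum came from Fn1, at 36452 units in each KO line. Within that list Col6a3 was listed at 0 in KO line 4, and no other value was 0. In such bulk RNA fewer cells of a type and less RNA per cell cannot be told apart. The part of feeder RNA in the results below was not tested.

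Among the 8 genes, Cbx2, Scmh1 and Scml2 rose in the KO lines, none fell, and 5 did not pass the test. Cbx2 rose 2.29-fold, Scmh1 1.57-fold and Scml2 1.41-fold, as ratios of mean deposited units. A gene passed at a Benjamini-Hochberg adjusted p below 0.05 over all genes in limma, and over all genes 17.1% passed, 9.75% higher and 7.34% lower in KO. At an unadjusted limma p below 0.05, 3 of the 8 were higher and 1, Bmi1, was lower. The KO and WT values did not overlap in 4 of the 8 genes, 3 higher and 1 lower, where 43.7% of all genes had no overlap (24.1% higher and 19.6% lower). The median log2 fold change was 0.04 over the 8 genes, and 0.04 over all genes. A log2 fold change here is the difference of mean log2 values, KO minus WT, after scaling and a pseudocount of 1.

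**Figure D1:**
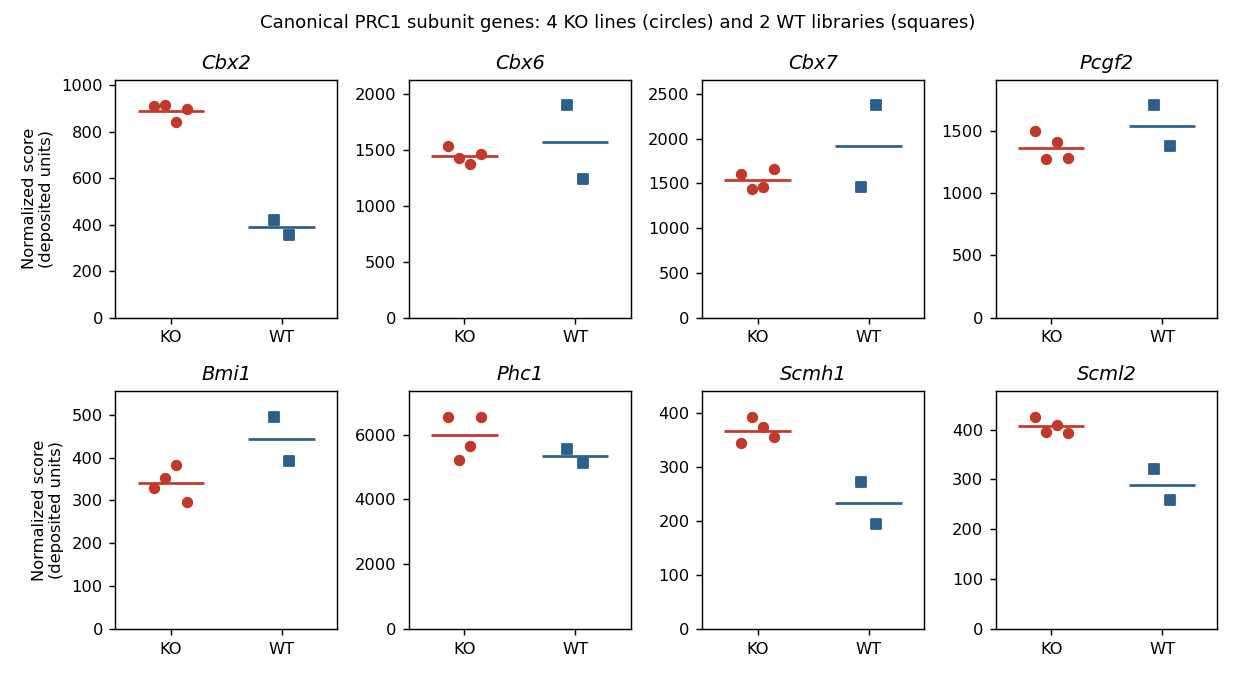
Normalized score in deposited units (vertical axes, from 0) of the 8 measured genes in the 4 KO lines (circles) and the 2 WT libraries (squares), with the group mean as a line. The KO lines of Cbx2 sit at 844 to 915 units, above WT at 357 and 422, while the values of Cbx6, Cbx7, Pcgf2 and Phc1 overlap between the groups.

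The CBX genes, which encode the chromatin-reading subunits, differed among themselves. Cbx2 encodes a CBX protein that can compact nucleosomes, and lies on chromosome 11 (ENSMUSG00000025577, 119022962 to 119031270 on the plus strand, build mm10). Cbx2 had 910, 915, 844 and 899 units in KO lines 1 to 4, against 422 and 357 units in WT replicates 1 and 2. Every KO line was at least 2-fold above both WT libraries, and the 4 lines lay within 1.08-fold of each other. The mean was 892.0 ± 32.7 units in KO (SD, n = 4) and 389.5 ± 46.0 units in WT (SD, n = 2). Its log2 fold change was 1.17 (SE 0.110, 95% interval 0.91 to 1.43, adjusted p = 0.00326, limma). The call held with each of the 6 libraries left out in turn, with log2 fold changes of 1.05 to 1.29 and adjusted p of 0.00219 to 0.0196.

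Cbx7, the CBX gene best known for holding developmental genes silent in these cells, did not pass. The gene lies on chromosome 15 (ENSMUSG00000053411, 79915807 to 79971119 on the minus strand, mm10). Cbx7 had 1606, 1437, 1460 and 1660 units in KO lines 1 to 4, against 1460 and 2372 units in WT replicates 1 and 2. The KO lines lay close together, WT replicate 1 fell within their range, and WT replicate 2 stood above all of them. This gave a log2 fold change of -0.27 with a 95% interval of -0.72 to 0.17 (adjusted p = 0.336, limma). Without WT replicate 1 the value was -0.62 and passed (adjusted p = 0.0164). A fit without a WT library sets the KO lines against 1 WT library, takes the spread from the KO lines alone and assumes that WT varies like them, while the WT gap of Cbx7 was 0.69 on the log2 scale and its KO range 0.21. Without WT replicate 2 the value was 0.07 (adjusted p = 0.7).

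Cbx6, a less studied CBX protein of the same family, lies on the same chromosome (ENSMUSG00000089715, 15, 79823896 to 79834688 on the minus strand, mm10). Cbx6 had 1535, 1428, 1379 and 1462 units in KO lines 1 to 4, against 1902 and 1242 units in WT replicates 1 and 2. The WT libraries lay on either side of all 4 lines, in the order opposite to that seen for Cbx7. Its log2 fold change was -0.08 with an interval of -0.48 to 0.31 (adjusted p = 0.747). Left without WT replicate 1 it was 0.22, and without WT replicate 2 it was -0.39, and neither passed.

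Cbx7 is known to be repressed by microRNAs of the miR-125 and miR-181 families in mouse embryonic stem cells, and Ddx5 works in microRNA processing, so these microRNAs and their matches in the transcripts are shown. The microRNAs themselves were not measured here. The mature sequences (RefSeq, GRCm38.p6) carry their seed, bases 2 to 8 from the 5′ end, in capitals. miR-125a-5p and miR-125b-5p share a seed, and so do miR-181a-5p and miR-181b-5p.
miR-125a-5p: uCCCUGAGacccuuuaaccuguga
miR-125b-5p: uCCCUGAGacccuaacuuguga
miR-181a-5p: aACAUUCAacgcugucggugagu
miR-181b-5p: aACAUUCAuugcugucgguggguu

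The 3′ untranslated region of the longest coding transcript of each gene (GENCODE M21, mm10) was searched on the sense strand for the match to each seed. The match is CTCAGGG for miR-125 and TGAATGT for miR-181. Cbx7 held 2 matches of each kind in 2509 bases. Cbx2 held 2 matches to miR-125 and none to miR-181 in 2100 bases, Pcgf2 held 1 match to miR-181, and the other 5 genes held neither. Of 10575 genes with such a region (median length 1206 bases), 15.6% held the miR-125 match and 19.7% the miR-181 match. A match is a run of letters and not a measured site. The miR-125 matches of Cbx2, which rose, and of Cbx7, which did not pass, follow as 23 bases each, with the match in capitals.
Cbx2, chr11:119029241-119029263, plus strand: ctgccctgtcctgagaCTCAGGG
Cbx2, chr11:119029612-119029634, plus strand: tagttgtgtggttgggCTCAGGG
Cbx7, chr15:79917391-79917413, minus strand: agtgtcccaccactttCTCAGGG
Cbx7, chr15:79916525-79916547, minus strand: actaggctggatatccCTCAGGG
The miR-181 matches of Cbx7 follow in the same form.
Cbx7, chr15:79916299-79916321, minus strand: cctccccctgcatattTGAATGT
Cbx7, chr15:79915992-79916014, minus strand: ctttgttcagacgaccTGAATGT

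Per kilobase of the longest coding transcript, Cbx7 was the highest of Cbx2, Cbx6 and Cbx7 in every library. These are levels, on a scale whose normalization is not given in the sources used here. Whether the score is already adjusted for length is unknown, and the division assumes that it is not. In deposited units, undivided, Cbx6 was above Cbx7 in WT replicate 1 (1902 against 1460) and below it in every other library. Cbx7 averaged 455 ± 32.2 units per kb in KO (SD, n = 4) and 566 ± 190.3 in WT (SD, n = 2). Cbx6 averaged 249.9 ± 11.3 in KO and 271 ± 80.4 in WT, and Cbx2 averaged 234 ± 8.59 in KO and 102 ± 12.1 in WT. In KO the ranges of Cbx6 (238 to 264) and Cbx2 (222 to 240.3) overlapped, although Cbx6 was the higher of the pair in each of the 4 KO lines. In WT they did not overlap, with Cbx6 at 328 and 214 and Cbx2 at 111 and 93.8 units per kb.

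The share of Cbx2 in the summed level per kb of these 3 genes was larger in every KO line than in either WT library. It was 24.5%, 26.4%, 24.9% and 24.1% in KO lines 1 to 4, against 12.8% and 9.30% in WT replicates 1 and 2. The share of Cbx7 was 46.6% to 50.1% in KO, against 49.6% and 69.5% in WT, so WT replicate 1 lay within the range of the KO lines and WT replicate 2 far above it. The level of Cbx7 over that of Cbx2 was 1.98, 1.76, 1.94 and 2.07 in the KO lines, against 3.89 and 7.47 in WT. The summed level itself overlapped, at 890.1 to 978 units per kb in KO, against 869 and 1008 in WT. These shares are a description with no test.

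**Figure D2:**
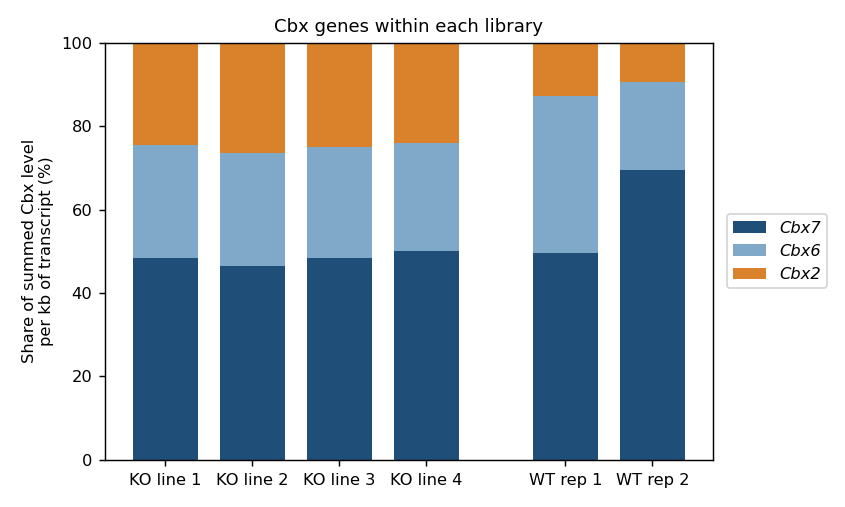
Share of Cbx7, Cbx6 and Cbx2 in their summed level per kb of transcript (vertical axis, percent, from 0) in the 4 KO lines and the 2 WT libraries. Cbx2 takes 24.1% to 26.4% in the KO lines, against 12.8% and 9.30% in WT, and Cbx7 is highest in WT replicate 2 at 69.5%.

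The SCM genes both rose. Scmh1 encodes a mouse relative of the fly protein Sex comb on midleg, and lies on chromosome 4 (ENSMUSG00000000085, 120405281 to 120530186 on the plus strand, mm10). Scmh1 had 344, 393, 374 and 356 units in KO lines 1 to 4, against 272 and 194 units in WT replicates 1 and 2. All 4 lines were above both WT libraries, by the least over WT replicate 1. In limma the log2 fold change was 0.64 (SE 0.159, 95% interval 0.26 to 1.02, adjusted p = 0.0372). Without WT replicate 1 it was 0.87 and passed (adjusted p = 0.00844), with the spread again taken from the KO lines alone (KO range 0.18, WT gap 0.46 on the log2 scale). Dropping any of the other 5 libraries ended the call (log2 0.41 to 0.67, adjusted p as high as 0.115), and the log2 value was lowest without WT replicate 2.

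Scml2, which in mouse is known for its role in male germ cells, lies on the X chromosome (ENSMUSG00000000037, 161117193 to 161258213 on the plus strand, mm10). Scml2 had 426, 396, 410 and 394 units in KO lines 1 to 4, against 320 and 258 units in WT replicates 1 and 2. The groups did not overlap, and the KO lines lay within 1.08-fold of each other. The log2 fold change was 0.48 (SE 0.128, 95% interval 0.18 to 0.78, adjusted p = 0.0459, limma). Among the fits that drop a library its call, too, held only in the one without WT replicate 1 (log2 0.63, adjusted p = 0.0137, 1 WT library left), and dropping any of the other 5 libraries ended it (log2 0.33 to 0.49, adjusted p as high as 0.125). Genes on the X chromosome had a median log2 fold change of 0.03, and those on chromosome 4 of 0.03.

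The stretches upstream of the start sites of these SCM genes are shown, with that of Bmi1, the gene with the lowest log2 fold change of the 8, beside them. RefSeq (GRCm38.p6) gave an entry for 7 of the 8 genes and 2 start sites for Scmh1. The stretch was taken from the 250 bases before the start, without bases in annotated exons of a measured gene. It reads 5′ to 3′ on the gene's strand, with every CG in capitals.
Scmh1, chr4:120405098-120405280, plus strand: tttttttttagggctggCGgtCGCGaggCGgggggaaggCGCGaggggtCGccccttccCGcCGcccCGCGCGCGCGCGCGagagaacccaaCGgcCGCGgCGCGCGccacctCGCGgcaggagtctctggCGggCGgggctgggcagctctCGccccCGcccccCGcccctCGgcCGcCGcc
Scml2, chrX:161162500-161162749, plus strand: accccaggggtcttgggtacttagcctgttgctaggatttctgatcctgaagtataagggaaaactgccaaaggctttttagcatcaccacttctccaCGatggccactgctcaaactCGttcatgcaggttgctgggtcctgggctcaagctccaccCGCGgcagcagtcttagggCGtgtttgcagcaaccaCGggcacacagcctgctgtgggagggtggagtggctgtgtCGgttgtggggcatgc
Bmi1, chr2:18676768-18677017, plus strand: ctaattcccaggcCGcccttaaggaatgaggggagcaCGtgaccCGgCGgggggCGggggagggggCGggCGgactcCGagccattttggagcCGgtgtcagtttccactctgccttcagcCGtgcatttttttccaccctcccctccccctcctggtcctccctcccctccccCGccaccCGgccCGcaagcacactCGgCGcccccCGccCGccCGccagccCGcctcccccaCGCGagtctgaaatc

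CG pairs numbered 45 in the full window of 250 bases before the first Scmh1 start, more than in 99.6% of 32851 such windows of the genome. The window of Bmi1 held 21 and that of Scml2 held 7, where the median was 6. The window before the other Scmh1 start held none. The GC box GGGCGG, searched on both strands, occurred 4 times before the first Scmh1 start, 6 times in Bmi1 and never in Scml2, and in 32.7% of all windows. CCAAT (33.8% of all windows) and TATAAA (12.4%) occurred in none of these 3 windows, while CACGTG (6.02%) occurred once, in Bmi1. The overlap of a GC box with the CG pairs inside it was not removed. The count for Scml2 thus lay between those of the 2 Scmh1 starts. The Scml2 window lies inside the span that GENCODE gives for the gene, so it is the region before an internal RefSeq start. These counts are a description of letters only.

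The PCGF genes did not pass. Pcgf2, also called Mel18, and Bmi1 encode alternative RING finger partners of Ring1 and Rnf2 in canonical PRC1. Bmi1, known for repression of the cell cycle inhibitor locus Cdkn2a, lies on chromosome 2 (ENSMUSG00000026739, 18677018 to 18686629 on the plus strand, mm10). Bmi1 had 328, 352, 384 and 297 units in KO lines 1 to 4, against 496 and 393 units in WT replicates 1 and 2. All KO lines were below both WT libraries, but KO line 3 only just. Its log2 fold change was -0.37 with a 95% interval of -0.73 to -0.0043 (adjusted p = 0.135, limma), and no library left out made it pass (adjusted p 0.0863 to 0.368). Bmi1, Cbx6, Pcgf2 and the summed feeder fibroblast markers were all highest in WT replicate 1. The summed embryonic stem cell markers peaked in the same library, at 180488 units. Their sum was 110674 units for WT replicate 2, while the KO lines ranged from 133017 to 140207 units. Cbx7 was instead highest in WT replicate 2, at 2372 units. Whether feeder RNA had a part in the levels of these genes was not tested.

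Pcgf2 lies on chromosome 11 (ENSMUSG00000018537, 97688823 to 97700497 on the minus strand, mm10). Pcgf2 had 1502, 1274, 1413 and 1282 units in KO lines 1 to 4, against 1708 and 1380 units in WT replicates 1 and 2. The groups overlapped, with WT replicate 2 inside the KO range. The limma log2 fold change was -0.17 with an interval of -0.46 to 0.13 (adjusted p = 0.372). Per kb of transcript, Pcgf2 was 6.62, 5.23, 5.32 and 6.24 times the level of Bmi1 in KO lines 1 to 4, against 4.98 and 5.08 times in WT. Pcgf2 was the higher of the PCGF pair in every library.

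Phc1 encodes a PHC protein with a SAM domain, and was the most abundant of the 8 per kb. The gene lies on chromosome 6 (ENSMUSG00000040669, 122317731 to 122340561 on the minus strand, mm10). Phc1 had 6563, 5226, 5659 and 6563 units in KO lines 1 to 4, against 5560 and 5136 units in WT replicates 1 and 2. KO line 2 lay between the WT libraries and the other 3 lines above them, with KO lines 1 and 4 on the same step of the table. A log2 fold change of 0.16 resulted, with an interval of -0.12 to 0.44 (adjusted p = 0.366). KO line 4 differed from the rest over chromosome 6 (median log2 deviation 0.42 from the mean of the libraries, 518 genes), while in the other 3 lines the median lay between -0.08 and -0.04. After the median of each chromosome was subtracted in each library, the log2 fold change of Phc1 was -0.01 (adjusted p = 0.958).

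**Figure D3:**
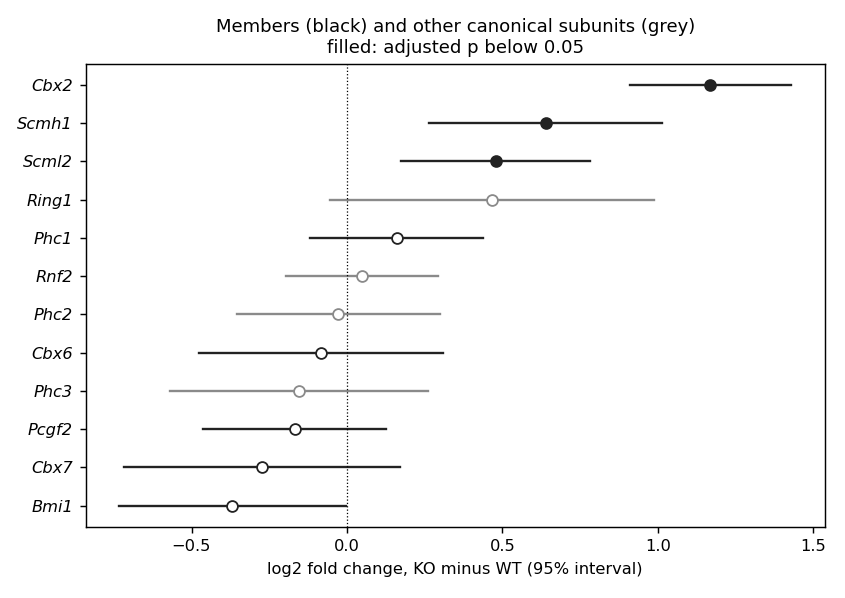
log2 fold change, KO minus WT (horizontal axis), with 95% intervals from limma for the 8 measured genes of the list (black) and 4 further canonical PRC1 subunits (grey), filled where the adjusted p is below 0.05. Cbx2, Scmh1 and Scml2 are filled at 1.17, 0.64 and 0.48, and the interval of Bmi1 ends just below 0.

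In order of mean level per kb in KO, Phc1 (1425 ± 159.2 units per kb) came first of the 8, then Pcgf2 (550.4 ± 44.2), Cbx7, Cbx6, Cbx2, Scmh1 (109.4 ± 6.38), Bmi1 (94.7 ± 10.3) and Scml2 (83.9 ± 3.06; SD, n = 4 each). In WT, Phc1 averaged 1269 ± 71.2, Pcgf2 621 ± 93.3, Bmi1 124 ± 20.3, Scmh1 69.5 ± 16.4 and Scml2 59.6 ± 9.04 units per kb (SD, n = 2 each). In KO the ranges of Scmh1 (103 to 117) and Bmi1 (82.6 to 107) overlapped, and so did those of Bmi1 and Scml2 (81.3 to 87.9), but within each of the 4 lines Scmh1 was above Bmi1 and Bmi1 above Scml2. In WT, Bmi1 lay above Scmh1 without overlap, at 138 and 109.3 against 81.1 and 57.9 units per kb, and Cbx7 overlapped Pcgf2. In the order of means Bmi1 thus stood above Scmh1 and Cbx2 in WT, and below both in KO. The WT values of Bmi1 and Cbx2 (111 and 93.8 units per kb) overlapped, though Bmi1 was the higher in each WT library. Scml2 came last of the 8 in both groups.

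Values of WT replicate 1 and WT replicate 2 were further apart than the whole range of the 4 KO lines for 6 of the 8 genes. On the log2 scale the WT gap was 0.69 for Cbx7, 0.61 for Cbx6, 0.46 for Scmh1, 0.30 for Pcgf2, 0.30 for Scml2 and 0.23 for Cbx2. The ranges over the KO lines were 0.21, 0.15, 0.18, 0.24, 0.11 and 0.11 for the same genes. Bmi1 and Phc1 were the exceptions, with WT gaps of 0.32 and 0.11 and KO ranges of 0.36 and 0.33. Over all genes the median WT gap was 0.31 and the median KO range 0.33. The limma test estimates 1 spread per gene from all 6 libraries, so the WT gap of a gene counts in it as well.

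**Figure D4:**
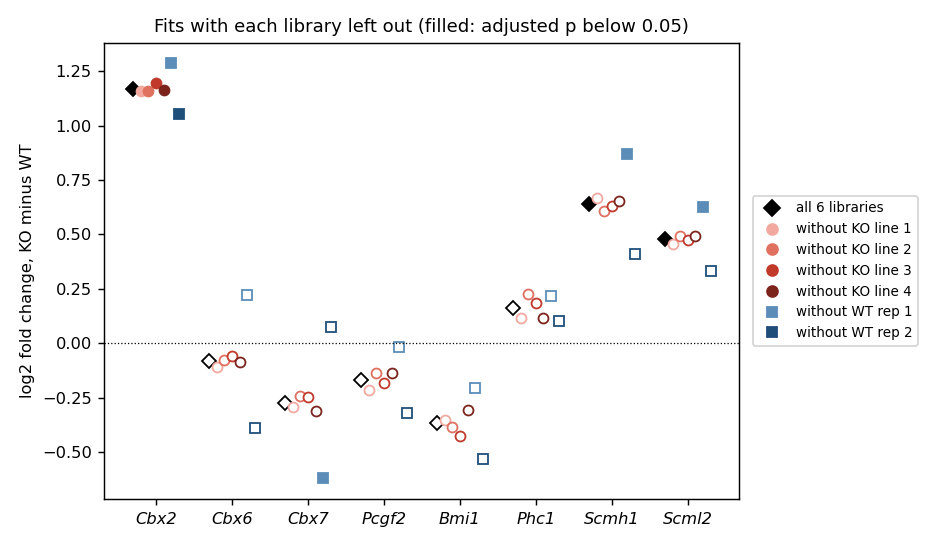
log2 fold change, KO minus WT (vertical axis), of the 8 genes with all 6 libraries (diamonds), without 1 KO line (circles) and without 1 WT library (squares), filled where the adjusted p is below 0.05. Cbx2 is filled in every fit, Scmh1 and Scml2 with all libraries and without WT replicate 1, and Cbx7 without WT replicate 1.

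Further canonical subunits, Ring1, Rnf2, Phc2 and Phc3, did not pass (limma, adjusted p 0.176 to 0.904), and 0 of these 4 had an unadjusted p below 0.05. The catalytic RING proteins gave log2 fold changes of 0.47 (interval -0.05 to 0.99) for Ring1 and 0.05 (interval -0.20 to 0.29) for Rnf2. Rnf2 had 2055, 1938, 1799 and 1790 units in KO lines 1 to 4, against 1716 and 1951 in WT. The PHC genes Phc2 and Phc3 gave -0.03 (interval -0.35 to 0.30) and -0.15 (interval -0.57 to 0.26).

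Genes of related complexes were tested in the same fit, in which 9.75% of all genes rose and 7.34% fell. The median log2 fold change over all genes was 0.04. Of 23 measured subunits of variant PRC1, the forms without a Polycomb CBX protein, 2 rose and none fell. At an unadjusted limma p below 0.05, 3 were higher and 2 lower, and the median log2 fold change was -0.00193. The number that passed was 1 to 6 with a library left out (6 without WT replicate 1), 4 with chromosome medians subtracted and 0 with the replicate block. Bcorl1, a corepressor related to the variant subunit Bcor, rose by 1.15 (log2). Bcorl1 had 336, 466, 432 and 432 units in KO lines 1 to 4, against 166 and 190 units in WT (adjusted p = 0.0079), and its call held with each library left out. Pcgf3, a RING partner of a variant complex, rose by 0.47 (adjusted p = 0.0343), and only the fit without WT replicate 1 kept that call among the 6 that drop a library (adjusted p 0.00821 to 0.103).

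Of 10 measured PRC2 subunits 1 fell and none rose, where 4 were higher and 1 lower at an unadjusted limma p below 0.05. Their median log2 fold change was 0.31, against 0.04 over all genes, of which 9.75% rose and 7.34% fell. The gene that fell was Eed, whose protein binds the methyl mark that PRC2 makes. Eed had 1827, 1724, 1882 and 1548 units in KO lines 1 to 4, against 2375 and 3046 units in WT (log2 -0.62, adjusted p = 0.0239). The call was lost without KO line 2, without KO line 3 or without WT replicate 2 (adjusted p up to 0.0807). Among the deubiquitinase genes that remove ubiquitin from histone H2A, Bap1 and Asxl1 fell, by 0.44 and 0.42 on the log2 scale (adjusted p = 0.0306 and 0.0467), and the third measured, Asxl2, did not pass. Each of these calls held without WT replicate 1 and ended when any of the other 5 libraries was dropped (adjusted p as high as 0.0944 for Bap1 and 0.149 for Asxl1).

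The HP1 genes Cbx1, Cbx3 and Cbx5 encode chromodomain proteins of the HP1 family. Of these 3 genes 1 rose, where 9.75% of all genes rose. Cbx5, which encodes HP1 alpha, gave a log2 fold change of 0.41 (adjusted p = 0.0417). It passed in only 5 of 10 alternatives other than leaving out a library (limma, adjusted p 0.041 to 0.193). That call held only in the fit without WT replicate 2 among those with a library left out (adjusted p 0.042 to 0.101). Among 5 measured relatives with MBT repeats or SAM domains, Sfmbt2, an MBT gene known for its role in mouse trophoblast, rose by 1.06. Sfmbt2 had 332, 286, 290 and 338 units in KO lines 1 to 4, against 124 and 162 units in WT (adjusted p = 0.00984), and passed with each library left out. The other 4 did not pass.

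Of 85 genes listed as Polycomb targets 12 were measured, and 2 of these rose and none fell. Over all genes 9.75% rose and 7.34% fell. At an unadjusted limma p below 0.05, 4 of the targets were higher and 0 lower, and the median log2 fold change was 0.19. The other listed targets were not among the genes measured, and a target silent in WT may have entered only through its KO values. Otx2, a homeobox gene of the epiblast and anterior brain, rose by 1.68 (adjusted p = 0.00767), with 788, 618, 437 and 626 units in KO lines 1 to 4, against 156 and 204 units in WT. Neurod1, a neuronal transcription factor, stood at 82, 84, 114 and 67 units in the KO lines, against 20 and 22 units in WT (log2 1.49, adjusted p = 0.0214), and lost its call without KO line 1, 2 or 3 (adjusted p 0.0555, 0.081 and 0.0827). Its log2 fold change was 0.75 with a pseudocount of 5 and 1.95 with a pseudocount of 0.1. It did not pass after quantile normalization (limma, adjusted p = 0.108) and was removed by a filter at a scaled value of 10. By mean level Neurod1 lay above only 1.34% of all genes. Cdkn2a, chosen here as the known target of Bmi1 after its values were seen, had 312, 429, 474 and 412 units in KO lines 1 to 4, against 548 and 372 units in WT, with overlap, and did not pass (log2 -0.16, adjusted p = 0.619). The Hox genes measured, Hoxb9 and Hoxc4, did not pass either (adjusted p = 0.466 and 0.399).

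**Figure D5:**
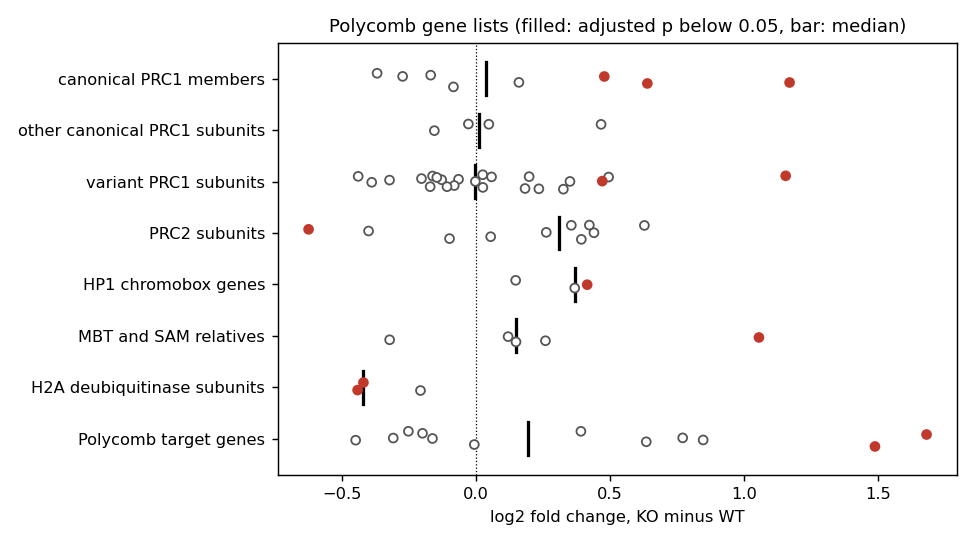
log2 fold change, KO minus WT (horizontal axis), of every measured gene in 8 Polycomb gene lists (rows), filled where the adjusted p is below 0.05, with the list median as a bar. Medians run from -0.42 for the 3 H2A deubiquitinase genes to 0.37 for the 3 HP1 genes, and Cbx2 is the rightmost point of the top row at 1.17.

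The genes whose pattern over the 6 libraries was most like that of Cbx2, the gene of the 8 with both the smallest p and the largest log2 fold change, were Ube2t, Tjp1 and Cuedc1. Likeness was the mean absolute difference of gene-centred log2 values over the 6 libraries, and came to 0.0493, 0.0586 and 0.0619. Ube2t, a ubiquitin-conjugating enzyme of DNA crosslink repair, had 416, 406, 425 and 429 units in KO lines 1 to 4, against 200 and 169 units in WT. Tjp1, which encodes the tight junction protein zonula occludens protein, stood at 3790 to 4232 units in KO, against 1996 and 1842 in WT. Cuedc1 stood at 216 to 282 units in KO, against 114 and 91 in WT.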

How the data were processed

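RNA-seq values of 4 KO lines and 2 WT libraries were taken from a table of 10989 genes. Per the submitters' processing notes, RSEM 1.2.17, Bowtie2 2.2.0 and build mm10 were named. Their roles, the annotation and the normalization were not given in the sources used here. Under the name CPM the authors deposited values that are whole numbers with nearly equal totals of 14612799 to 14722877 per library, so they were treated as a normalized score, and limma was kept as for CPM. Counts cannot be recovered, so depth is unknown.

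Values were divided by 14.7012, a pseudocount of 1 was added and log2 taken, which understates changes of low genes. A filter on low values (scaled value 1 or more in any 2 libraries) removed no gene, so all 8 measured members were tested. limma 3.58.1 (R 4.3.3; lmFit, eBayes with trend, two-sided, all 6 libraries, no covariate) was tested on simulated data. p-values were adjusted over all genes, at a threshold of 0.05. The smallest p that exact permutation allows here is 0.0667. The labels do not say whether the WT libraries came from separate cultures, so the p-values reflect only how these samples vary, which may be technical.

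The members and lists were chosen with earlier results of these data known. Named genes were Ddx5, the members, 4 other canonical subunits, up to 4 called genes with the largest change per related list, and the 3 genes most like the member with the smallest p and the one with the largest change. Positions and transcript lengths come from GENCODE M21 (mm10), promoters and microRNAs from RefSeq (GRCm38.p6). One listed canonical subunit is not reported here and was left out of lists, shares and figures. Alternatives covered pseudocount, filter, scaling, trend, library weights, chromosome medians, a replicate block and each library left out.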

Additional observations from a re-analysis of the deposited data

How the results depend on the processing

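The call of Cbx2 held in 9 of 10 alternatives other than leaving out a library, and those of Scmh1 in 8 and Scml2 in 7. The fit with no filter is counted among these, though it equals the main fit, since the filter removed no gene. Over all genes 1878 passed. That number was 382 with library weights, 75 with the replicate block and 472 to 3304 with a library left out. The split was 1071 higher and 807 lower, against 953 higher and 972 lower with trimmed-mean scaling and 20 higher and 55 lower with the block. Of the 8 members 3 passed, against 1 with library weights (Cbx2), 0 with the replicate block (limma, 1 at an unadjusted p below 0.05) and 1 to 4 with a library left out. Trimmed-mean scaling left 2, without Scml2 (adjusted p = 0.0544). Ddx5 gave -1.997 with library weights (adjusted p = 0.092) and -2.47 to -2.08 with a library left out. Of the genes named as called in the related lists, only Bcorl1 passed with library weights (limma, adjusted p = 0.0435). Sfmbt2 and Otx2 did not (adjusted p = 0.0524 and 0.0771), nor did Pcgf3, Eed, Cbx5, Bap1, Asxl1 and Neurod1 (adjusted p 0.0934 to 0.182). None of these genes passed with the replicate block (limma). Their adjusted p was 0.139 for Sfmbt2, 0.106 for Bcorl1, 0.0636 for Otx2 and 0.145 to 0.25 for the others.

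The replicate block used the libraries numbered 1 and 2 of both groups, which left 1 residual degree of freedom. The labels do not tie these numbers to a shared culture or day, and the deviations of same-numbered libraries correlated at 0.153 over genes. Cbx2 had an adjusted p of 0.0667 with the block. Among genes that did not pass, direction changed for Phc1 with chromosome centring (-0.0113) and for Phc2 with the replicate block (0.0370). With a library left out it changed for Cbx6 (-0.39 to 0.22), Cbx7 (-0.62 to 0.0742), Rnf2 (-0.0436 to 0.14), Phc2 (-0.21 to 0.16) and Phc3 (-0.40 to 0.0886). For the other changes the cause was not tested. Depth is unknown, so no counting limit can be given.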

Other observations

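Genes around Cbx2 on chromosome 11 were looked at after its values were seen. Of 6 other genes described within 500 kb of Cbx2, 2 rose and none fell in the KO lines (limma; 4 higher and 1 lower at an unadjusted p below 0.05), with a median log2 fold change of 0.64, where all genes of chromosome 11 had a median of 0.01 and 9.86% higher calls. The genes that rose were Tbc1d16 (log2 1.09, adjusted p = 0.0378) and Rnf213 (0.99, adjusted p = 0.0176). Tbc1d16 had 180, 276, 262 and 375 units in KO lines 1 to 4, against 129 and 105 units in WT. Rnf213 had 2640, 2370, 2226 and 1804 units in the same lines, against 950 and 1323 units in WT. Eif4a3, an RNA helicase of the exon junction complex, had the lowest value of the 6 (log2 -0.32, adjusted p = 0.0938).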
